A study of Mus musculus with 21 samples.

Results

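The mitosis genes described here are 40 mouse genes chosen by name for their part in cell division. They were chosen with earlier results of these data known. Of the 40, 39 had at least 1 probe set that the platform annotation gives to a single gene, among 18193 genes measured. Ccnb1, which encodes cyclin B1, had none and was not analysed. Each gene was read by its brightest such probe set, a group of short probes for one transcript, after quantile normalization of the arrays. Brightest means the highest mean over all 21 arrays.

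RNA was measured on 21 Affymetrix arrays of mouse heart samples in 4 groups. They were G4D TAC (n = 6), G4D sham (n = 5), wild-type TAC (n = 6) and wild-type sham (n = 4). The samples are labelled cardiac myocytes, and whether cells or tissue were used is not given in the sources used here. The word hearts below means these samples. G4D mice are gene-targeted animals, heterozygous for an altered Gata4 gene, which encodes a transcription factor that heart muscle needs. TAC stands for transverse aortic constriction, in which a ligature on the aorta puts the left ventricle under a pressure load. Sham mice had the operation with no handling of the aorta. Age, sex, strain and the time between surgery and RNA are not given in the sources used here, and nothing says that the arrays of a group are separate animals. The p-values therefore measure only the spread between these arrays, which may be technical.

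A cell enters mitosis when Cdk1 bound to an A- or B-type cyclin becomes active. Condensin and topoisomerase II then compact and untangle the chromosomes, kinetochores attach them to the spindle, and the spindle checkpoint holds the cell until all are attached. The anaphase-promoting complex ends mitosis by marking cyclins for destruction, and a contractile ring divides the cell. Most of these genes are transcribed only in dividing cells, and heart muscle cells of adult mice have largely left the cell cycle, while fibroblasts, endothelial cells and macrophages of the heart can still divide.

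All levels below are log2 probe-set values after normalization, and a difference is a difference of 2 such levels. Values after ± are standard errors of a difference unless called SD. The label names cardiac myocytes, and 12 cardiomyocyte markers averaged 12.26 to 12.38 per array. Markers of other cells were read too, with fibroblast markers at 8.32 to 9.83 and endothelial markers at 8.09 to 8.71, so transcripts of other cell types were present too. Gata4 itself, on the brighter of its 2 probe sets, averaged 7.97 ± 0.18 in G4D TAC, 7.85 ± 0.09 in G4D sham, 7.80 ± 0.23 in wild-type TAC and 8.11 ± 0.15 in wild-type sham (SD, n = 6, 5, 6 and 4). It differed by -0.25 ± 0.12 between the genotypes in sham (limma, adjusted p = 0.73) and by 0.17 ± 0.10 after TAC (adjusted p = 0.651). Whether the probes lie in the altered part of the gene is not known, so this does not check the genotype labels. In such bulk samples fewer cells of a type and less RNA per cell cannot be told apart.

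Promoter sequences are shown for 6 members, because many mitosis genes are known to share 2 kinds of promoter element, the cell cycle genes homology region (CHR) and the CCAAT box bound by the factor NF-Y. The sequences are from RefSeq (GRCm38.p6), stop before the first base of the annotated gene, and run 5′ to 3′ on the gene's strand. Positions below count from the start that RefSeq gives for that window. Capitals mark matches, on either strand, to the CHR motifs TTTGAA and TTTAAA, the NF-Y box CCAAT and the E2F-type site TTTNNCGC. Cdk1 lies on the minus strand (chr10:69352913-69353162), as do Top2a (chr11:99024200-99024439) and Cdc20 (chr4:118437344-118437593). Ube2c (chr2:164769679-164769928), Cks2 (chr13:51644982-51645231) and Cenpa (chr5:30666636-30666876) lie on the plus strand. The first 5 were called higher after TAC in both genotypes and Cenpa in neither.
Cdk1: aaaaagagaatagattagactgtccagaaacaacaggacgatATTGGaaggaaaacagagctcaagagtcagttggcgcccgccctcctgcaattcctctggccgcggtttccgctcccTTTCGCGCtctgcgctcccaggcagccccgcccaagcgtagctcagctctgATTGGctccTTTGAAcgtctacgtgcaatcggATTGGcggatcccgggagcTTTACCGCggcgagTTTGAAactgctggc
Top2a: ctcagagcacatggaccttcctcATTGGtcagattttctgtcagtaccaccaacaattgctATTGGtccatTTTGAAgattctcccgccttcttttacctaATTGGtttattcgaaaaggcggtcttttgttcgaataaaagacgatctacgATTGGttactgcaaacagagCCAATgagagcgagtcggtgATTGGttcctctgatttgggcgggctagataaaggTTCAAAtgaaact
Ube2c: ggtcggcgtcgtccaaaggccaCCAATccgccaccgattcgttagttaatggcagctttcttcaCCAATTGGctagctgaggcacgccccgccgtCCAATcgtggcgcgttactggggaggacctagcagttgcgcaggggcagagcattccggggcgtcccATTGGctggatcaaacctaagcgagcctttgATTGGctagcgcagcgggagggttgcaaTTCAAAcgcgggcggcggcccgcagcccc
Cdc20: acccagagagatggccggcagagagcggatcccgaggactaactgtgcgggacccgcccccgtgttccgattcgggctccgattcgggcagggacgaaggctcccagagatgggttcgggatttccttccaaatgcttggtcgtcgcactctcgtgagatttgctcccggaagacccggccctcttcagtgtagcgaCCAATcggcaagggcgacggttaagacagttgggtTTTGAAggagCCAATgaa
Cks2: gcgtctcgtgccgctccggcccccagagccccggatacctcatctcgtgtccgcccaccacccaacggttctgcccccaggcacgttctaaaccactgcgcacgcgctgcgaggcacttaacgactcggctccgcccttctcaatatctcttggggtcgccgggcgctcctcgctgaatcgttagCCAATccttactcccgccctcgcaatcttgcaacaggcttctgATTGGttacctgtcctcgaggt
Cenpa: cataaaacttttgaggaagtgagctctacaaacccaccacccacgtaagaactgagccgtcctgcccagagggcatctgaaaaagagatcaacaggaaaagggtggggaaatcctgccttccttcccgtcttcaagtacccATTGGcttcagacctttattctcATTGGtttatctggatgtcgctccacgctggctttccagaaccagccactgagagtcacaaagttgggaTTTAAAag

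In the printed bases the CHR match nearest the start began at position -15 in Cdk1, -23 in Top2a, -29 in Ube2c and -18 in Cdc20, and at -17 in Cenpa, where it had the form TTTAAA. Neither CHR form was found in the printed bases of Cks2. In Ube2c a pair of the CCAAT matches overlapped, in CCAATTGG. Top2a and Ube2c each held 6 CCAAT matches, while Cdk1 held 3 CCAAT matches and 2 of the E2F type.

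Windows of 300 bases, from 250 before to 50 after the start, were found for 34 of the 40 members and not for Ccna2, Foxm1, Smc4, Aurkb, Tpx2 and Kif20a. TTTGAA was in 26 of the 34 (76.5%), against 17.9% of 32851 windows of all genes. TTTAAA was in 9 (26.5%), against 13.2% of all windows, and either form in 29 (85.3%), against 27.6%. CCAAT was in 27 members (79.4%), against 37.4% of all windows, and 19 members (55.9%) held at least 2, against 11.7%. TTTNNCGC was in 4 members (11.8%), against 5.17%. A CHR form together with CCAAT was in 25 members (73.5%), against 10.7%, and a CHR form that began between -50 and 20 was in 18 (52.9%), against 6.76%. A CHR form was in 19 of 23 members called after TAC in at least 1 genotype and in 9 of 10 called in neither, and CCAAT was in 18 of 23 and in 8 of 10. These shares describe letters in the windows and were not tested.

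**Figure D1:**
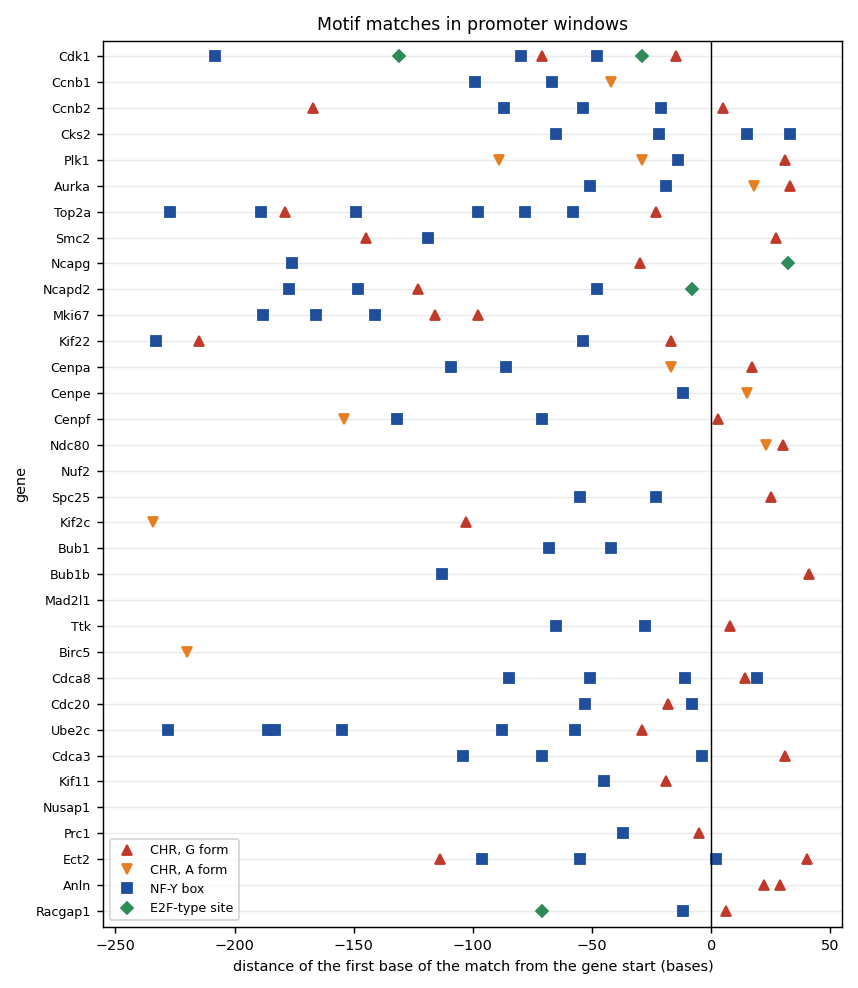
Positions of motif matches in the promoter windows of 34 mitosis genes; the x axis is the distance in bases of a match's first base from the gene start, and each row is a gene. Triangles are CHR forms (up, TTTGAA; down, TTTAAA), squares CCAAT and diamonds TTTNNCGC; most CCAAT matches lie before the start, CHR forms lie on both sides of it, and Nuf2, Mad2l1 and Nusap1 have no match.

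Most mitosis genes were read near the array's background in sham hearts. The background was taken from 80 probe sets of olfactory and vomeronasal receptor genes, whose mean levels had a median of 3.55 and a 90th percentile of 5.29. Mean levels of all 45037 probe sets other than controls had a 40th percentile of 4.35 and a 60th of 5.39. More than 40% of them thus also lay under 5.29. Group means under 5.29 are called near background here. That was so for 15 of 39 members in G4D TAC, 26 in G4D sham, 13 in wild-type TAC and 28 in wild-type sham. In sham hearts of both genotypes Cdk1, Top2a, Mki67, Birc5 and Ube2c were among them, while Kif22, Smc4, Cdc20, Ncapd2, Prc1, Cenpa, Cenpf, Kif2c, Tpx2, Anln and Mad2l1 stood above it in both. Below that level values have no firm scale, so the size of a TAC difference against such a sham mean is uncertain.

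**Figure D2:**
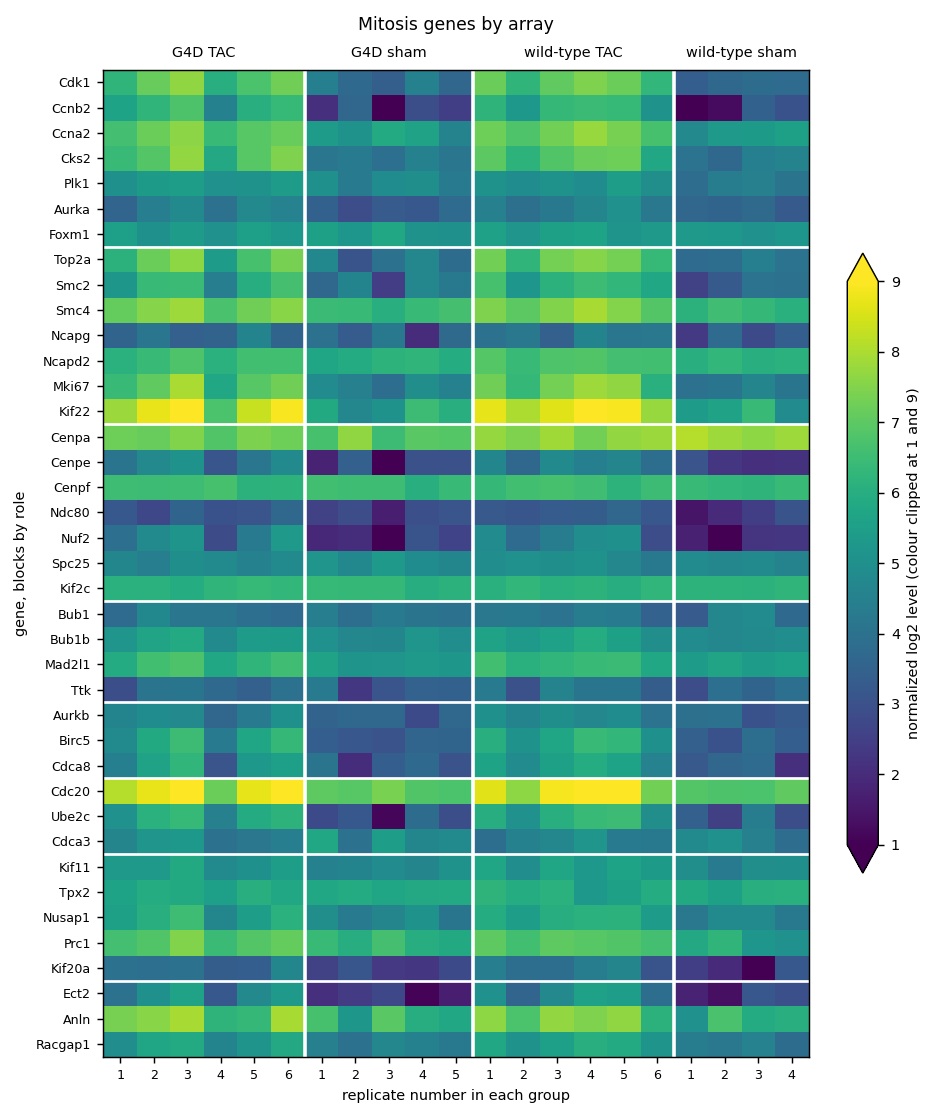
Normalized log2 level of 39 mitosis genes (rows, in blocks by role) on each of 21 arrays (columns, in the order G4D TAC, G4D sham, wild-type TAC and wild-type sham). Colour is the level, clipped at 1 and 9; rows such as Cdk1, Top2a, Mki67 and Kif22 are bright in both TAC groups and dark in both sham groups, and rows such as Cenpf, Kif2c and Tpx2 keep one shade.

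Most mitosis genes were higher after TAC in both genotypes, with Cdk1, Ccnb2, Top2a, Mki67, Kif22, Ube2c and Ect2 among the largest differences. In G4D hearts 25 of 39 members rose (limma, adjusted p under 0.05 over all genes tested), where 9.21% of all genes rose. In wild-type hearts 26 of 39 members rose, where 3.34% of all genes rose. Since the members were chosen with earlier results of these data known, these shares describe them and test no independent set. No member fell in either genotype, where 5.83% of all genes fell in G4D and 1.09% in wild type, and 0 members were lower at an unadjusted p under 0.05 in limma. The median difference over the 39 members was 1.03 in G4D, against -0.03 over all genes, and 1.26 in wild type, against -0.02. In G4D 14 members had every TAC array above every sham array (5.2% of all genes), and in wild type 26 had (4.95%). Both comparisons use separate arrays but a shared estimate of each gene's spread, so their calls are not independent. Without G4D sham replicate 1, for example, Aurka and Bub1b lost their call in wild type. The 24 members that rose in both made up 96% of those that rose in G4D and 92.3% of those that rose in wild type. Cenpe passed only in G4D, Ndc80 and Bub1b passed only in wild type, and the interaction of TAC and genotype passed for none of these 3.

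The members that rose did so by 0.43 to 4.50 in G4D (median 1.78) and by 0.56 to 5.41 in wild type (median 1.95). The difference exceeded 1, a doubling on this scale, in 19 members in G4D and in 21 in wild type. It exceeded 2 in 11 and in 12. Raising every value under the background level to that level left 14 members called in G4D and 11 in wild type. Of the members that rose, 4 in each genotype had no value above that level and could not be tested. The median difference over all members still tested was 0.54 in G4D and 0.55 in wild type. Over all genes 2887 were then called in G4D (56.6% higher) and 1033 in wild type (64.9% higher). With the values as deposited, without quantile normalization, 8 members were called in wild type, and without wild-type sham replicate 1, 17 members were. In G4D the calls of Ccnb2, Plk1, Ncapd2, Nuf2, Cdca8 and Prc1 were each lost when some single array was left out. In wild type those of Ccnb2, Aurka, Ncapd2, Ndc80, Nuf2, Bub1b, Mad2l1, Aurkb, Cdca8, Cdc20 and Nusap1 were.

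**Figure D3:**
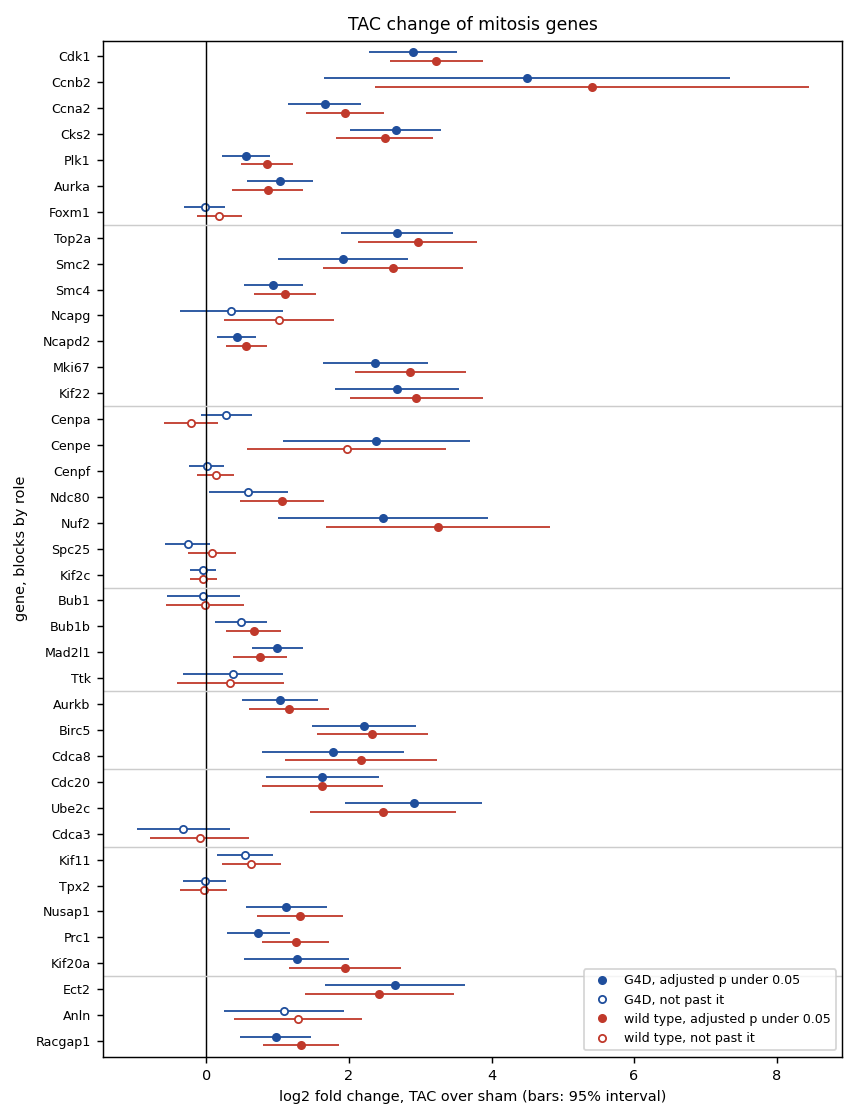
Log2 difference of each of 39 mitosis genes, TAC over sham, in G4D (blue, upper) and wild type (red, lower), with bars for the 95% interval. Filled points passed the test at an adjusted p under 0.05; the intervals of the genotypes overlap for every gene, and 12 genes are open in both.

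Many macrophage and fibroblast markers rose with the mitosis genes, and fewer markers of other cell types did. Over all genes 9.21% rose and 5.83% fell in G4D, and 3.34% rose and 1.09% fell in wild type. Counts in the small lists that lie near these shares say little about the cell type. Of 18 macrophage and myeloid markers 13 rose in G4D and 11 in wild type, and 0 fell in either (limma, also 0 at an unadjusted p under 0.05). Their mean per array was 7.0 to 7.62 in G4D TAC, 6.29 to 6.83 in G4D sham, 6.97 to 7.78 in wild-type TAC and 6.56 to 6.82 in wild-type sham. Of 14 fibroblast markers 9 rose and 1 fell in G4D, and 8 rose in wild type. Their mean was 9.23 to 9.83 in G4D TAC, 8.37 to 9.07 in G4D sham, 8.80 to 9.52 in wild-type TAC and 8.32 to 8.43 in wild-type sham, with Col1a1 and Lum far above background in all groups. Of 12 endothelial markers 2 rose in G4D and 3 in wild type. Of 12 cardiomyocyte markers 1 fell in G4D and 0 passed in wild type (limma, 0 at an unadjusted p under 0.05). Of 10 lymphocyte markers 3 fell in G4D and 0 passed in wild type (limma, 1 at an unadjusted p under 0.05), with list means of 4.04 to 4.69 over all arrays. Smooth muscle and pericyte markers rose in 3 of 10 cases in G4D and 0 passed in wild type (limma, 2 at an unadjusted p under 0.05). Among 6 erythroid markers 1 rose and 1 fell in G4D and 0 passed in wild type (limma, 1 at an unadjusted p under 0.05). Among 8 epicardial and mesothelial markers 2 rose and 2 fell in G4D, and 1 rose in wild type. The difference between the 3′ and 5′ actin control probe sets, a sign of RNA quality, also separated the groups. For actin it was 0.193 to 0.379 in G4D TAC and 0.385 to 0.628 in G4D sham, and 0.113 to 0.408 in wild-type TAC and 0.437 to 0.667 in wild-type sham. The same measure for Gapdh overlapped in both genotypes, at -0.31 to -0.01 in G4D TAC and -0.42 to -0.23 in G4D sham, and -0.30 to -0.06 in wild-type TAC and -0.33 to 0.11 in wild-type sham. The part of other cells and of RNA quality in the rise of the mitosis genes was not tested.

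Entry into mitosis was the first role. Of its 7 members with a probe set, 6 rose in each genotype, with a median difference of 1.66 in G4D and 1.94 in wild type. Cdk1, the kinase that starts mitosis (1448314_at), had levels of 6.03 to 7.68 (median 6.93) in G4D TAC arrays, against 4.45, 3.74, 3.42, 4.50 and 3.65 in G4D sham arrays. In wild type its level was 6.24 to 7.44 (median 7.11) after TAC, against 3.39, 3.69, 3.83 and 3.79 in sham. No TAC array came within 1 unit of a sham array in either genotype, and all sham values were under the background level. The difference was 2.90 ± 0.29 in G4D (adjusted p = 2.98e-06), which is 7.46-fold, and 3.23 ± 0.31 in wild type (adjusted p = 2.83e-05), which is 9.36-fold.

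Cyclins that activate Cdk1 rose with it. Ccnb2, cyclin B2 (1450920_at), had levels of 4.51 to 6.77 (median 6.12) in G4D TAC, against 2.09, 3.65, -4.04, 2.91 and 2.47 in G4D sham. In wild type Ccnb2 stood at 5.10 to 6.45 (median 6.26) after TAC, against -5.61, 1.24, 3.49 and 3.03 in sham. Its sham arrays scattered over many units below background, and 1 G4D sham array and 1 wild-type sham array were far below zero. The Ccnb2 difference, 4.50 ± 1.36 in G4D (adjusted p = 0.0305) and 5.41 ± 1.45 in wild type (adjusted p = 0.0385), had a wide error. Without G4D sham replicate 3 alone it was 3.14 ± 1.17 in G4D (adjusted p = 0.0954), and without wild-type sham replicate 1 alone it was 3.36 ± 1.13 in wild type (adjusted p = 0.144). With both of these low arrays left out, the Ccnb2 difference was 3.14 ± 0.47 in G4D (adjusted p = 0.000379) and 3.36 ± 0.52 in wild type (adjusted p = 0.00257), past the test in both. Ccna2, cyclin A2 (1417911_at), had levels of 6.39 to 7.61 (median 7.03) in G4D TAC, against 5.39, 5.11, 5.91, 5.61 and 4.58 in G4D sham. In wild type Ccna2 stood at 6.69 to 7.76 (median 7.26) after TAC, against 4.76, 5.32, 5.37 and 5.53 in sham. The groups did not overlap, and the difference was 1.66 ± 0.25 in G4D (adjusted p = 0.000135) and 1.94 ± 0.26 in wild type (adjusted p = 0.000335). A dimmer Ccna2 probe set (1417910_at) gave larger differences, 3.14 ± 0.55 in G4D and 3.85 ± 0.59 in wild type.

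Cks2, a small protein that docks Cdk1 onto its substrates (1417457_at), had levels of 5.84 to 7.71 (median 6.90) in G4D TAC, against 4.16, 4.33, 3.91, 4.53 and 4.14 in G4D sham. In wild type Cks2 stood at 5.77 to 7.24 (median 6.91) after TAC, against 4.04, 3.69, 4.47 and 4.57 in sham. All TAC arrays were above all sham arrays, by 2.65 ± 0.30 on average in G4D (adjusted p = 1.07e-05) and by 2.50 ± 0.33 in wild type (adjusted p = 0.000287). The mitotic kinases Plk1 and Aurka also rose. Plk1 differed by 0.55 ± 0.16 in G4D and 0.85 ± 0.17 in wild type, and its mean stayed near background in all 4 groups. Aurka, which matures the spindle poles, differed by 1.03 ± 0.22 in G4D and 0.86 ± 0.24 in wild type, also near background throughout. Foxm1 encodes a transcription factor of mitosis genes and was the member of this role that passed in neither genotype. Its levels (1448833_at) were 5.0 to 5.52 (median 5.33) in G4D TAC, 5.54, 5.21, 5.75, 5.08 and 5.01 in G4D sham, 5.15 to 5.63 (median 5.41) in wild-type TAC and 5.32, 5.28, 5.03 and 5.21 in wild-type sham. The groups overlapped, with differences of -0.02 ± 0.14 in G4D and 0.18 ± 0.15 in wild type, and 3 other Foxm1 probe sets did not pass either.

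Genes of chromosome compaction rose in 6 of 7 cases in each genotype, with a median difference of 1.92 in G4D and 2.62 in wild type. Top2a, topoisomerase II alpha, which untangles sister chromatids (1454694_a_at), had levels of 5.41 to 7.63 (median 6.93) in G4D TAC, against 4.72, 3.09, 4.0, 4.70 and 3.82 in G4D sham. In wild type Top2a stood at 6.22 to 7.56 (median 7.30) after TAC, against 3.79, 3.90, 4.46 and 4.04 in sham. Its groups did not overlap, and it differed by 2.67 ± 0.38 in G4D (adjusted p = 8.51e-05) and 2.97 ± 0.40 in wild type (adjusted p = 0.000335). A pair of dimmer Top2a probe sets, both near background, passed in neither genotype, and the mean of all 3 probe sets differed by 0.48 in G4D (adjusted p = 0.592) and by 1.07 in wild type (adjusted p = 0.343). One of the dim Top2a probe sets was at -7.58 on G4D TAC replicate 6, and without that array the mean differed by 0.92 in G4D (adjusted p = 0.127).

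Kif22, a motor that pushes chromosome arms from the spindle poles (1437716_x_at), had levels of 6.74 to 9.37 (median 8.53) in G4D TAC, against 5.84, 4.70, 5.12, 6.48 and 6.06 in G4D sham. In wild type Kif22 stood at 7.76 to 9.07 (median 8.66) after TAC, against 5.40, 5.62, 6.39 and 4.87 in sham. Its TAC arrays lay above all sham arrays, and the sham means, unlike those of Cdk1 or Top2a, were above background. Kif22 differed by 2.67 ± 0.42 in G4D (adjusted p = 0.000217) and 2.94 ± 0.45 in wild type (adjusted p = 0.000919). Mki67 encodes Ki-67, the coat protein of mitotic chromosomes used to stain dividing cells (1426817_at). Its levels were 5.80 to 7.98 (median 7.0) in G4D TAC, against 4.87, 4.50, 3.89, 4.96 and 4.50 in G4D sham, and 6.07 to 7.83 (median 7.30) in wild-type TAC, against 4.02, 4.11, 4.64 and 4.12 in wild-type sham. Every TAC array was above every sham array, and Mki67 differed by 2.37 ± 0.35 in G4D (adjusted p = 0.000134) and 2.86 ± 0.38 in wild type (adjusted p = 0.000293).

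Smc2 and Smc4 form the core of condensin. Smc2 (1448635_at) had levels of 4.42 to 6.63 (median 6.19) in G4D TAC, against 3.67, 4.61, 2.46, 4.70 and 4.25 in G4D sham. In wild type Smc2 stood at 5.22 to 6.66 (median 6.23) after TAC, against 2.59, 3.27, 4.06 and 4.02 in sham. The lowest G4D TAC array fell among the G4D sham arrays, while the wild-type groups were apart. Smc2 differed by 1.92 ± 0.44 in G4D (adjusted p = 0.00506) and 2.62 ± 0.47 in wild type (adjusted p = 0.00301). The mean of the 5 Smc2 probe sets differed by -0.10 in G4D, with 1 dim probe set at -8.85 on G4D TAC replicate 6, and by 0.22 without that array, past the test in neither case. Smc4, above background in all groups, differed by 0.94 ± 0.20 in G4D and 1.11 ± 0.21 in wild type, and a second Smc4 probe set passed in both too. Ncapd2, a condensin subunit, differed by 0.43 ± 0.13 in G4D and 0.56 ± 0.14 in wild type, the smallest rise of any member that passed. Ncapg, another condensin subunit (1429172_a_at), passed in neither. Its levels were 3.45 to 4.61 (median 3.58) in G4D TAC, 3.99, 3.34, 4.24, 2.01 and 3.76 in G4D sham, 3.45 to 4.61 (median 4.18) in wild-type TAC and 2.36, 3.80, 2.80 and 3.38 in wild-type sham, near background in all groups. It differed by 0.35 ± 0.34 in G4D (adjusted p = 0.562) and 1.02 ± 0.37 in wild type (adjusted p = 0.139).

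Of 7 centromere and kinetochore genes 2 rose in each genotype, with a median difference of 0.28 in G4D and 0.13 in wild type. Nuf2, a subunit of the complex that grips microtubules (1430811_a_at), had levels of 2.83 to 5.31 (median 4.55) in G4D TAC, against 1.90, 2.03, -0.07, 3.07 and 2.62 in G4D sham. In wild type Nuf2 stood at 2.91 to 5.03 (median 4.62) after TAC, against 1.73, -1.93, 2.22 and 2.27 in sham. Group means were under background in all 4 groups, and the G4D groups overlapped. Nuf2 differed by 2.47 ± 0.70 in G4D (adjusted p = 0.0215) and 3.25 ± 0.75 in wild type (adjusted p = 0.0162). It no longer passed in G4D without G4D sham replicate 3 (1.98, adjusted p = 0.0742), nor in wild type without wild-type sham replicate 2 (2.24, adjusted p = 0.0609). Ndc80, its partner in that complex, differed by 0.59 ± 0.26 in G4D (adjusted p = 0.152) and 1.06 ± 0.28 in wild type (adjusted p = 0.0357). The kinetochore motor Cenpe differed by 2.38 ± 0.62 in G4D (adjusted p = 0.013) and 1.97 ± 0.67 in wild type (adjusted p = 0.112). Both were near background in all groups, and the interaction of TAC and genotype passed for neither (adjusted p = 0.867 for Ndc80 and 0.969 for Cenpe).

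The other 4 genes of this role passed in neither genotype. Cenpa, the histone variant that marks the centromere (1450842_a_at), had levels of 6.83 to 7.47 (median 7.22) in G4D TAC, 6.67, 7.68, 6.48, 6.96 and 6.90 in G4D sham, 7.30 to 7.86 (median 7.71) in wild-type TAC and 8.11, 7.83, 7.65 and 7.83 in wild-type sham. It differed by 0.28 ± 0.17 in G4D (adjusted p = 0.317) and by -0.21 ± 0.18 in wild type (adjusted p = 0.655), and without G4D sham replicate 2 the G4D difference of 0.47 passed (adjusted p = 0.0323). Cenpf, a large kinetochore protein (1458447_at), had levels of 6.13 to 6.66 (median 6.50) in G4D TAC, 6.57, 6.51, 6.50, 6.04 and 6.41 in G4D sham, 6.18 to 6.69 (median 6.52) in wild-type TAC and 6.40, 6.31, 6.22 and 6.43 in wild-type sham. Its 95% interval ran from -0.24 to 0.25 in G4D and from -0.13 to 0.39 in wild type, so a doubling lay outside it on this probe set. Kif2c, which depolymerizes microtubules at the centromere (1454221_a_at), had levels of 5.95 to 6.37 (median 6.17) in G4D TAC, 6.36, 6.32, 6.32, 5.98 and 6.13 in G4D sham, 5.99 to 6.29 (median 6.12) in wild-type TAC and 6.18, 6.16, 6.13 and 6.25 in wild-type sham. The interval for Kif2c ran from -0.23 to 0.13 in G4D and from -0.23 to 0.15 in wild type. Spc25, a further subunit of the complex of Nuf2 and Ndc80 (1453815_at), had levels of 4.41 to 4.99 (median 4.73) in G4D TAC, 5.16, 4.74, 5.31, 4.89 and 4.67 in G4D sham, 4.22 to 5.06 (median 4.95) in wild-type TAC and 4.87, 4.69, 4.83 and 4.58 in wild-type sham. It differed by -0.26 ± 0.15 in G4D and by 0.08 ± 0.16 in wild type on this probe set, near background in all groups.

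The spindle checkpoint had 4 members, of which 1 rose in G4D and 2 in wild type. Mad2l1, the checkpoint protein that restrains Cdc20, differed by 1.0 ± 0.17 in G4D (adjusted p = 0.000489) and 0.76 ± 0.18 in wild type (adjusted p = 0.0218), and its mean was above background in all groups. Bub1b, the partner of Mad2l1 in the checkpoint complex, differed by 0.49 ± 0.17 in G4D (adjusted p = 0.0688) and 0.66 ± 0.19 in wild type (adjusted p = 0.0467). The checkpoint kinases Bub1 and Ttk passed in neither genotype, and both were under background in every group. Bub1 levels (1438571_at) were 3.79 to 4.74 (median 4.04) in G4D TAC, 4.43, 3.91, 4.25, 4.09 and 4.0 in G4D sham, 3.53 to 4.40 (median 4.22) in wild-type TAC and 3.28, 4.70, 4.86 and 3.73 in wild-type sham. Ttk levels (1449171_at) were 2.91 to 4.12 (median 3.86) in G4D TAC, 4.29, 2.29, 3.11, 3.53 and 3.47 in G4D sham, 2.99 to 4.58 (median 4.11) in wild-type TAC and 2.88, 3.93, 3.57 and 3.91 in wild-type sham. Ttk differed by 0.37 ± 0.34 in G4D and 0.34 ± 0.36 in wild type, and Bub1 by -0.04 ± 0.25 and -0.02 ± 0.26.

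All 3 members of the chromosomal passenger complex, which corrects wrong attachments, rose in both genotypes, with a median difference of 1.78 in G4D and 2.17 in wild type. Birc5 encodes survivin, the subunit that brings the complex to the centromere (1424278_a_at). Its levels were 4.27 to 6.49 (median 5.78) in G4D TAC, against 3.40, 3.18, 3.04, 3.62 and 3.58 in G4D sham, and 5.03 to 6.40 (median 5.88) in wild-type TAC, against 3.46, 3.01, 3.89 and 3.38 in wild-type sham. All sham arrays lay below all TAC arrays, and Birc5 differed by 2.22 ± 0.35 in G4D (adjusted p = 0.000224) and 2.33 ± 0.37 in wild type (adjusted p = 0.00133). Aurkb, its kinase, differed by 1.03 ± 0.25 in G4D and 1.16 ± 0.27 in wild type, and Cdca8, which encodes borealin, by 1.78 ± 0.48 and 2.17 ± 0.51. The lowest G4D TAC array of each fell within the range of the G4D sham arrays.

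Of the 3 genes of ubiquitin-dependent exit, Ube2c and Cdc20 rose in both genotypes. Ube2c, the conjugating enzyme of the anaphase-promoting complex (1452954_at), had levels of 4.49 to 6.34 (median 6.01) in G4D TAC, against 2.79, 3.22, 1.12, 3.82 and 2.92 in G4D sham. In wild type Ube2c stood at 4.94 to 6.49 (median 6.0) after TAC, against 3.46, 2.53, 4.39 and 2.93 in sham. The sham values were all under background, every TAC array was above them, and Ube2c differed by 2.91 ± 0.46 in G4D (adjusted p = 0.00024) and 2.48 ± 0.49 in wild type (adjusted p = 0.00602). Cdc20, the activator of that complex, averaged 8.60 ± 0.86 in G4D TAC and 6.97 ± 0.26 in G4D sham, and 8.48 ± 0.82 in wild-type TAC and 6.85 ± 0.14 in wild-type sham (SD, n = 6, 5, 6 and 4). It stood above background in sham and differed by 1.63 ± 0.38 in G4D and 1.63 ± 0.40 in wild type. Cdca3, an adaptor of a ubiquitin ligase that degrades the Wee1 kinase (1448001_x_at), passed in neither. Its levels were 4.03 to 5.26 (median 4.52) in G4D TAC, 5.76, 4.0, 5.45, 4.67 and 4.80 in G4D sham, 3.90 to 5.16 (median 4.38) in wild-type TAC and 4.84, 5.03, 4.49 and 3.86 in wild-type sham, and it differed by -0.32 ± 0.31 in G4D and -0.09 ± 0.33 in wild type.

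Spindle motors and microtubule proteins rose in 3 of 5 cases in each genotype, with a median difference of 0.73 in G4D and 1.26 in wild type. Nusap1, which bundles spindle microtubules, differed by 1.12 ± 0.27 in G4D and 1.32 ± 0.29 in wild type. Prc1, which crosslinks the central spindle, differed by 0.73 ± 0.21 and 1.26 ± 0.22, and Kif20a, a motor of the central spindle, by 1.27 ± 0.35 and 1.95 ± 0.37. The uncalled pair were Kif11, the motor that pushes spindle poles apart, and Tpx2, the activator of Aurka. Kif11 levels (1435306_a_at) were 4.80 to 5.85 (median 5.29) in G4D TAC, 4.52, 4.60, 4.87, 4.63 and 5.08 in G4D sham, 4.91 to 5.73 (median 5.50) in wild-type TAC and 4.94, 4.32, 4.96 and 4.98 in wild-type sham. Kif11 came close to the threshold, with differences of 0.55 ± 0.19 in G4D (adjusted p = 0.0543) and 0.63 ± 0.20 in wild type (adjusted p = 0.0809). Tpx2 levels (1428105_at) were 5.51 to 6.05 (median 5.83) in G4D TAC, 5.75, 5.92, 5.74, 5.83 and 5.90 in G4D sham, 5.27 to 6.20 (median 5.95) in wild-type TAC and 5.85, 5.56, 6.03 and 6.06 in wild-type sham, with differences of -0.02 ± 0.15 and -0.04 ± 0.16.

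Cytokinesis, the splitting of the cell body, had 3 members, of which Ect2 and Racgap1 rose in both genotypes. Ect2, the exchange factor that switches on RhoA at the cell equator (1419513_a_at), had levels of 3.20 to 5.60 (median 4.88) in G4D TAC, against 2.12, 2.43, 2.74, 1.07 and 1.66 in G4D sham. In wild type Ect2 stood at 3.62 to 5.58 (median 4.90) after TAC, against 1.75, 1.33, 3.16 and 2.94 in sham. The groups were apart in both genotypes, though every group mean was under background, and Ect2 differed by 2.64 ± 0.47 in G4D (adjusted p = 0.000644) and 2.43 ± 0.50 in wild type (adjusted p = 0.00773). Racgap1, which binds Ect2 at the central spindle, differed by 0.97 ± 0.24 in G4D and 1.33 ± 0.26 in wild type. Anln encodes anillin, the scaffold of the contractile ring (1433543_at), and had levels of 6.20 to 7.94 (median 7.47) in G4D TAC, 6.68, 5.25, 6.95, 5.98 and 5.78 in G4D sham, 6.13 to 7.69 (median 7.54) in wild-type TAC and 5.06, 6.69, 5.92 and 6.03 in wild-type sham. Its arrays scattered widely within each group, so that differences of 1.09 ± 0.40 in G4D (adjusted p = 0.0754) and 1.29 ± 0.43 in wild type (adjusted p = 0.105) did not pass.

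Some members had other probe sets that differed from the brightest in their response. Of the 39 members, 28 had 48 further single-gene probe sets, of which 42 were near background by their mean over all arrays. When all 34945 single-gene probe sets were tested together, 7.3% were called higher in G4D and 2.28% in wild type. Of 14 members not called in G4D, 6 had another probe set that was, namely Bub1, Bub1b, Cdca3, Kif11, Spc25 and Tpx2. In wild type 6 of 13 did, namely Bub1, Cdca3, Kif11, Kif2c, Spc25 and Tpx2, and no other probe set of an uncalled member was called lower in either. Counting any probe set, 31 members were called higher in G4D and 32 in wild type; members with several probe sets have several chances to be called.

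Spc25 is an example, as its second probe set (1424118_a_at) averaged 5.10 in G4D TAC, 3.09 in G4D sham, 5.17 in wild-type TAC and 2.66 in wild-type sham. It differed by 2.01 ± 0.34 in G4D (adjusted p = 0.000645) and 2.51 ± 0.37 in wild type (adjusted p = 0.000889), while the brightest did not pass. A dimmer Cdca3 probe set (1452040_a_at) likewise differed by 1.89 ± 0.38 in G4D and 2.68 ± 0.40 in wild type. For Tpx2 (1428104_at) the differences were 1.01 ± 0.26 and 1.43 ± 0.28, and for Kif11 (1452314_at) 1.14 ± 0.29 and 1.37 ± 0.31. The second Bub1 probe set (1424046_at) differed by 4.57 ± 1.23 in G4D and 6.18 ± 1.31 in wild type, from sham means below zero. The reverse also occurred, in that the dimmer probe sets of Smc2 and Nusap1 were not called although the brightest was. With the mean of a gene's probe sets, Aurka, Top2a, Smc2, Nusap1 and Racgap1 lost their call in both genotypes, and Ncapd2 in G4D. Spc25, Bub1 and Kif11 then gained one in both, Bub1b and Anln in G4D and Ncapg in wild type. Which probe set reads the mature transcript was not tested.

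**Figure D4:**
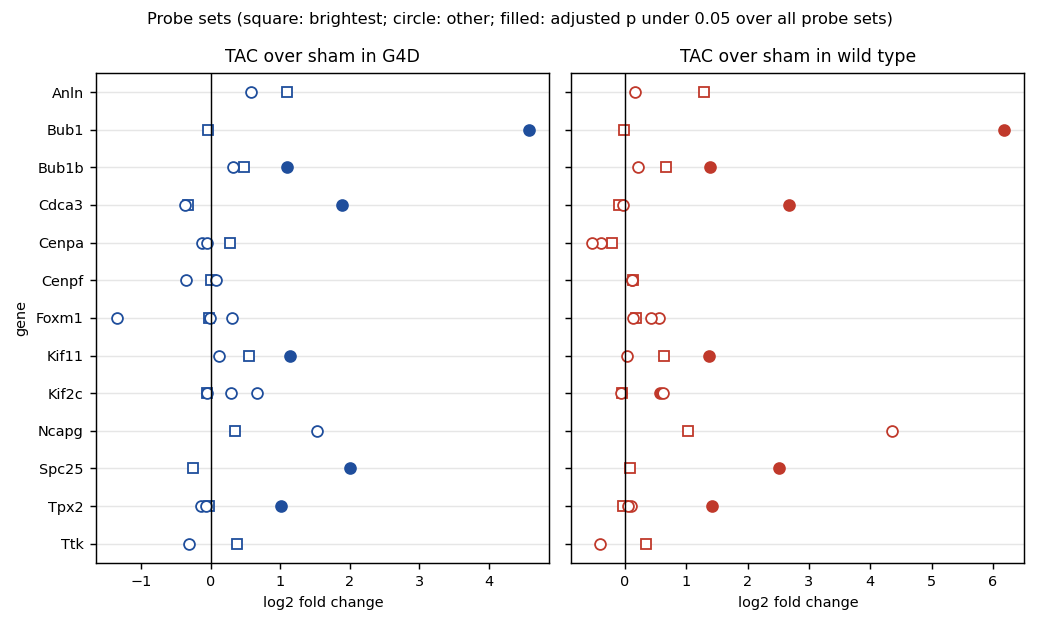
Log2 difference, TAC over sham, of every single-gene probe set of the 12 members called in neither genotype and of Bub1b, in G4D (left) and wild type (right). Squares are the brightest probe set and circles the others; filled symbols passed at an adjusted p under 0.05 over all 34945 probe sets, a different set of tests from that over genes, so Bub1b's brightest probe set is open in wild type.

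Members tended to be high or low together on the same TAC arrays. In G4D TAC replicate 4 was the lowest array for 22 of the 25 members that rose and replicate 1 for the other 3, while replicate 3 was the highest for 21 and replicate 6 for 4. In wild-type TAC replicate 6 was the lowest for 16 of 26 and replicate 2 for 10, while the highest array was replicate 4 for 13, replicate 5 for 8 and replicate 1 for 5. The mean level of all 39 members was 4.95 to 6.22 over G4D TAC arrays (5.68 ± 0.46, SD, n = 6), against 4.10 to 4.61 over G4D sham arrays (4.42 ± 0.20, SD, n = 5). In wild type it was 5.28 to 6.10 after TAC (5.78 ± 0.35, SD, n = 6), against 4.06 to 4.54 in sham (4.32 ± 0.20, SD, n = 4). The groups did not overlap on this mean in either genotype. The arrays lowest for the members were also lowest for macrophage markers, at 7.0 in G4D TAC replicate 4 and 6.97 in wild-type TAC replicate 6, and for fibroblast markers, at 9.23 and 8.80. The next lowest were not. G4D TAC replicate 1, among the 2 lowest for 22 of 25 members, had 7.34 for macrophage and 9.77 for fibroblast markers (group medians 7.28 and 9.73). Wild-type TAC replicate 2, among the 2 lowest for 25 of 26, had 7.45 and 9.35 (group medians 7.43 and 9.20). The highest G4D TAC array for the members, replicate 3, had 7.23 for macrophage markers and 9.44 for fibroblast markers, neither of them the highest of its group. The highest wild-type TAC array for the members, replicate 4, was also the highest of its group for macrophage markers, at 7.78, and for fibroblast markers, at 9.52.

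**Figure D5:**
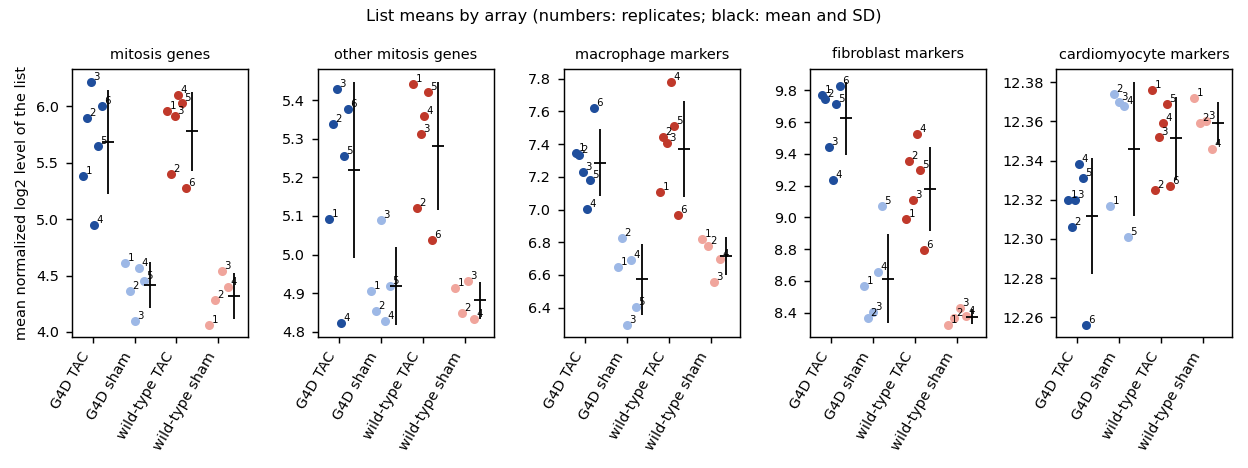
Mean normalized log2 level of 5 gene lists on each array, in the order G4D TAC, G4D sham, wild-type TAC and wild-type sham; each panel has its own axis. Points are arrays with their replicate number, and black bars the mean and SD of a group; mitosis genes, macrophage markers and fibroblast markers are higher in every TAC array than in any sham array of the same genotype, and cardiomyocyte markers stay between 12.26 and 12.38.

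No mitosis gene passed the test between the genotypes. Between G4D and wild type in sham, 0 of 39 members passed, where 0.0385% of all genes passed. The median difference over the members was 0.07. With the values as deposited it was -0.11, where that of all genes was -0.24. At an unadjusted p under 0.05 limma gave 3 members (6.88% of all genes), with Cenpa lower in G4D and Plk1 and Prc1 higher. Cenpa averaged 6.94 ± 0.46 in G4D sham and 7.85 ± 0.19 in wild-type sham (SD, n = 5 and 4), a difference of -0.91 ± 0.19 (adjusted p = 0.135). Its G4D sham replicate 2, at 7.68, was the highest of its group and reached the wild-type sham range, and without that array Cenpa passed, at -1.10 ± 0.15 (adjusted p = 0.00208). Plk1 differed by 0.48 ± 0.18 (adjusted p = 0.588) and Prc1 by 0.59 ± 0.23 (adjusted p = 0.627). Cdk1 differed by 0.28 ± 0.33, with a 95% interval of -0.40 to 0.96, and Top2a by 0.02 ± 0.42, with an interval of -0.85 to 0.89.

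After TAC 0 of 39 members differed between G4D and wild type, where 1.92% of all genes did, and the median difference was -0.10. Limma gave 2 members at an unadjusted p under 0.05 (11% of all genes), Cenpa at -0.42 ± 0.16 (adjusted p = 0.27) and Ncapd2 at -0.27 ± 0.12 (adjusted p = 0.432). For Cdk1 the interval of the difference ran from -0.64 to 0.54, for Mki67 from -0.88 to 0.53 and for Kif22 from -1.03 to 0.64. Differences of the sizes within these intervals are not excluded by this number of arrays. Of 14 fibroblast markers 4 were higher in G4D than in wild type after TAC, and of 18 macrophage markers 0 differed (limma, 0 at an unadjusted p under 0.05).

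The TAC response itself, compared between the genotypes as an interaction, passed for 0 of 39 members, where 0.0055% of all genes (1 gene) passed. None of the 39 reached an unadjusted p under 0.05 in limma, where 7.05% of all genes did. The difference of the TAC effects, G4D less wild type, had a median of -0.19 over the members, and it was above zero in 9 of 39 (23.1%), against 50.4% of all genes. With the values as deposited this median was 0.08, where that of all genes was 0.38. Since members move together on an array, these 39 values are not independent. It was -0.33 ± 0.43 for Cdk1 and -0.27 ± 0.61 for Kif22. For Cenpa it was 0.49 ± 0.25 (adjusted p = 0.726), with the lowest unadjusted p of any member (0.065). The members' levels by group were highest in wild-type TAC for 26 members and in G4D TAC for 7, and lowest in wild-type sham for 23 and in G4D sham for 11.

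Another 80 genes of mitosis, among them further kinesins, kinetochore and condensin subunits and their transcription factors, were set beside the 39. Of the 78 with a probe set, 17 rose and 1 fell after TAC in G4D, where 9.21% of all genes rose and 5.83% fell. In wild type 14 rose and 0 fell, where 3.34% of all genes rose and 1.09% fell (limma, 0 lower there at an unadjusted p under 0.05). Their median difference was 0.23 in G4D and 0.26 in wild type. The largest rises in G4D were Kif23, a motor of the central spindle, at 1.89 ± 0.49, Cep55, which acts in the final cut, at 1.59 ± 0.36, Tacc3, a spindle protein, at 1.51 ± 0.24 and Ckap2 at 1.42 ± 0.26. In wild type they were Kif23 at 2.37 ± 0.52, the checkpoint protein Zwilch at 1.82 ± 0.35, Ckap2 at 1.79 ± 0.28 and Cep55 at 1.74 ± 0.38. The phosphatase gene Cdc25c was the gene that fell in G4D, by 0.48 ± 0.13 (adjusted p = 0.0174). Between the genotypes 1 of the 78 passed after TAC, no more than the 1.92% of all genes that did. It was Mybl2, a transcription factor that acts on CHR promoters, lower in G4D with a difference of -0.64 ± 0.15 (adjusted p = 0.028). In sham and for the interaction 0 of 78 passed (limma, 1 and 3 at an unadjusted p under 0.05).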

How the data were processed

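Each array's deposited table gave log2 values by probe set. The authors summarized probes with PLIER, per the submitters' processing notes. Its version, background correction and normalization are not given in the sources used here, and the log2 scale was read from the values (-13.5 to 15.1). Array medians of the deposited log2 values ran from 4.31 to 5.33, so the 45101 probe sets were quantile normalized. After 64 controls were left out, 34945 probe sets carried 1 gene symbol in the platform annotation, 932 several and 9160 none. Each of 18193 genes was read by its brightest single-symbol probe set. No filter on level was applied, since a member that passed one only through its TAC arrays would have had to differ. The choice of the brightest probe set does use the TAC arrays, so it can favour a probe set that rises. Smc2 probe set 1429658_a_at, not chosen, read 4.33, 4.52, 3.93 and 3.66 in wild-type sham and 3.45 to 4.99 in wild-type TAC. The chosen one read 2.59, 3.27, 4.06 and 4.02 in wild-type sham. Group means were fitted in limma 3.58.1 (R 4.3.3) with 21 arrays in 1 fit and no covariate (17 residual degrees of freedom). Tests were two-sided, and called means a Benjamini-Hochberg adjusted p under 0.05 over 18193 genes. The fit was tested on simulated data.

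The members and lists were chosen with earlier results of these data known. Each sham value and the range and median of the TAC values are given for members with the 10 largest changes in a genotype among those called whose groups do not overlap, and for members called in neither. Of other mitosis genes, at most 4 with the largest change per direction are named. Alternatives were filters at the 40th and 60th percentile, values as deposited, median centring, a floor at background, the mean of a gene's probe sets, a variance trend, only the groups compared, a replicate block and leaving out each array. The number of arrays limits the precision.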

Additional observations from a re-analysis of the deposited data

Results flagged for a closer look

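Among 156 combinations of a member and a group, 6 had 1 array far from the rest of its group by Dixon's criterion, which chance gives in about 1 of 20 groups. In G4D sham, Ccnb2 was -4.044 on replicate 3, against 2.086 to 3.645 on the others. Also in G4D sham, Aurkb was 2.793 on replicate 4, against 3.544 to 3.718. In wild-type TAC, Plk1 was 5.444 on replicate 5, against 4.879 to 5.087. In wild-type sham, Mki67 was 4.639 on replicate 3, against 4.016 to 4.119, Nuf2 was -1.934 on replicate 2, against 1.725 to 2.274, and Kif11 was 4.322 on replicate 2, against 4.945 to 4.978. Of these 6 values, 5 lie under the background level of 5.29.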

How the results depend on the processing

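Of 25 members called higher in G4D, 19 were kept whichever array was left out, and of 26 in wild type 15 were. The counts ran from 20 (without G4D TAC replicate 6) to 28 (without G4D TAC replicate 4) in G4D, and from 17 (without wild-type sham replicate 1) to 27 (without wild-type TAC replicate 6) in wild type. No alternative called a member lower after TAC in either genotype. The filter at the 60th percentile, which left 16 members to test, called 12 in G4D and 12 in wild type. That filter uses the mean over all arrays. Cdk1, Top2a, Mki67 and Cks2, near background in sham, passed it only through their TAC arrays, so these counts are no check of the rise. A floor at background called 14 in G4D and 11 in wild type, and the values as deposited 24 of the 25 in G4D and 8 in wild type. Between the genotypes in sham, 1 member, Cenpa, was called lower under the filter at the 60th percentile, and 0 or 1 when an array was left out. With the mean of a gene's probe sets, 12 of 78 differences changed sign, all but 4 of them past the test neither before nor after. The 4 moved to 2.27 for Bub1 and 0.87 for Spc25 in G4D, -0.10 for Smc2 in G4D and 3.08 for Bub1 in wild type. Without G4D TAC replicate 6, an alternative chosen after seeing the data, these were 2.18 for Bub1, 0.82 for Spc25 and 0.22 for Smc2 in G4D and 3.08 for Bub1 in wild type. The cause was not tested.

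The replicate number of the titles, taken as a block, kept 21 calls in G4D and 17 in wild type. No general pairing by number was seen. The 28 same-numbered pairs had a median correlation of -0.07 (-0.36 to 0.42), against -0.01 (-0.51 to 0.53) in 136 other pairs. Only 2 of 21 arrays correlated best with their own number. Whether some arrays share a batch was not tested. Leaving out wild-type sham replicate 1 and G4D sham replicate 3, an alternative chosen after seeing the data, kept 23 of 25 calls in G4D and 18 of 26 in wild type. Scaling also moved the whole table. As deposited, the median of all genes shifted to 0.26 for TAC in G4D, -0.24 and 0.13 for G4D over wild type in sham and after TAC, and 0.38 for the interaction. Over all genes, calls numbered 1699 as deposited (98.0% higher) and 1980 after median centring (88.7%) in G4D, against 2737 as reported (61.2%). In wild type they numbered 34 (91.2%), 324 (95.4%) and 806 (75.4%), and 321 under the block. After TAC, G4D over wild type, they numbered 38, 110 and 349.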
